A study of Mus musculus with 5 samples.

Results

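The IgLON genes Lsamp, Ntm, Opcml and Negr1 lie in very long transcription units, and NEUROD2 peaks were assigned to them by position alone. A peak was taken as a member when its midpoint lay in the mm10 span of a gene's longest transcript or up to 50 kb from either end, and overlapping peaks were merged into regions. The windows held 293 of the 94621 peaks in the series, of which ab1 gave 151 (of 51841), ab2 gave 115 (of 35310) and ab3 gave 27 (of 7470). These peaks formed 160 of the 53837 merged regions, and 102 of the 32262 regions in which at least 2 antibodies had a peak. The ChIP-Seq material was cerebral cortex of BALB/c embryos at E14.5, precipitated with a mouse antibody (ab1) and a pair of rabbit antibodies (ab2 and ab3), 1 library each. The labels give no genotype or treatment that differs between libraries, and each used cortices pooled from several litters, so the data describe a single condition with no contrast between groups. Chromatin precipitated with GFP antibodies of either host served as the control in peak calling, and ab2 and ab3 shared the rabbit control. The peak lists hold no expression values, so the tissue label could not be checked against marker genes.

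NEUROD2 is a basic helix-loop-helix transcription factor of newly generated cortical excitatory neurons, and factors of this family bind DNA at the E-box, CANNTG, in pairs with a partner protein. IgLON proteins are small immunoglobulin-domain adhesion molecules held on the neuronal surface by a lipid anchor. They bind themselves and each other, and they are known for roles in axon outgrowth, pathway choice and synapse formation. Lsamp encodes the limbic system-associated membrane protein, Ntm encodes neurotrimin, Opcml encodes the opioid-binding cell adhesion molecule, and Negr1 encodes neuronal growth regulator 1, also called Kilon.

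Binding was spread over all 4 genes, and most of it lay far from any annotated start. Lsamp and Ntm had 31 regions each, Opcml had 22 and Negr1 had 19, and 1 region between Opcml and Ntm fell in both windows. All 4 genes had a region with all 3 antibodies: 10 at Ntm, 9 at Lsamp, 5 at Opcml and 4 at Negr1. These counts say little by themselves, because 67.6% of the 21938 protein-coding genes had at least 1 region in the same kind of window, and 75% of the 224 protein-coding genes with a span of at least 500 kb had a region with all 3 antibodies.

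The sequences at the midpoints of selected regions are printed first, to show the E-boxes near the centre of each. Each stretch was read from GRCm38 (mm10) on the strand of the gene. Capitals mark the extended E-box, that is CANNTG with GC, GA, TC or TA as its middle bases and with G or T after it, searched on both strands, and 69.5% of all regions in the series held it in the central 300 bases. Palindromic or overlapping sites are counted once for each CANNTG core. The highest region of each gene is shown, with the second regions of Ntm and Opcml by summed score. The second region of Ntm is labelled neighbouring, although a weaker region with ab1 and ab2 lies between it and the highest. Also shown are the regions with the most sites in the central 200 bases of Lsamp and Ntm, and the region between Opcml and Ntm.
Lsamp, highest region, intron 5, + strand (chr16:41975317-41975616): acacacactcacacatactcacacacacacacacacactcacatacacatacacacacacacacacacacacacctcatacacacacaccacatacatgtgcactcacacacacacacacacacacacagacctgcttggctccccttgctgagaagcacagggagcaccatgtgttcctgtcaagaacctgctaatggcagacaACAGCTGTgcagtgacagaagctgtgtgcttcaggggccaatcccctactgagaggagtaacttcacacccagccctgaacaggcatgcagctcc
Lsamp, most sites, intron 2, + strand (chr16:41172924-41173123): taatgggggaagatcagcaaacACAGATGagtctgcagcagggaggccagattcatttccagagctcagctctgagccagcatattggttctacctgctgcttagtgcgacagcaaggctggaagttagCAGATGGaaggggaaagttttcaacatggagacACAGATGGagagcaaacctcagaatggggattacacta
Ntm, highest region, intron 1, - strand (chr9:29796555-29796854): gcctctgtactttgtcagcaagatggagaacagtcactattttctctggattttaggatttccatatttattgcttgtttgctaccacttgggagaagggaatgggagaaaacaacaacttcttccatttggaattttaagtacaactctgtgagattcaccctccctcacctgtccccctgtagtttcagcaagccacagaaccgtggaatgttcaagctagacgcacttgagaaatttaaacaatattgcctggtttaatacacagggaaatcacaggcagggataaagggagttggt
Ntm, neighbouring region, intron 1, - strand (chr9:29791365-29791664): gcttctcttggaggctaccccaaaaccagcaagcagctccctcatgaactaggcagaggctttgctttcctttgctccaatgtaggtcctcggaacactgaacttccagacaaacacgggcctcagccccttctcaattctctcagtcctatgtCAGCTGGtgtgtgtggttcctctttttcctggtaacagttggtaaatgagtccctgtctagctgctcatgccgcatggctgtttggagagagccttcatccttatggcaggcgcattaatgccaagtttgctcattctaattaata
Ntm, most sites, intron 2, - strand (chr9:29295828-29296027): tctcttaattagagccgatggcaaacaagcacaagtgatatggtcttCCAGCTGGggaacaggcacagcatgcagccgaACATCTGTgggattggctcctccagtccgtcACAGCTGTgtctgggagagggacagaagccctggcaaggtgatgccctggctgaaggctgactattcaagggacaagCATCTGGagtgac
Opcml, highest region, intron 3, + strand (chr9:28690219-28690518): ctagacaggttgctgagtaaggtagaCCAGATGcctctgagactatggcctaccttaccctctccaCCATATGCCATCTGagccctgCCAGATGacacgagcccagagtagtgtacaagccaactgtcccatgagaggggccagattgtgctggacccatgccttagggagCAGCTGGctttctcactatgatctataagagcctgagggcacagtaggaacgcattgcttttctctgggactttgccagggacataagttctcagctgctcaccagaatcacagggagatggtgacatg
Opcml, second region, intron 4, + strand (chr9:28822240-28822539): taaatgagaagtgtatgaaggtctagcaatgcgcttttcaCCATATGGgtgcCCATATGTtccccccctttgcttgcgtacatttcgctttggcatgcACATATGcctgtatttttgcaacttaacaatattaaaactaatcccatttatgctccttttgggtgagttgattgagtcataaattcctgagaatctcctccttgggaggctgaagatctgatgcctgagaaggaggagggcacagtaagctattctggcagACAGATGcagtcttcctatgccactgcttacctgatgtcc
Between Opcml and Ntm, + strand (chr9:28969543-28969842): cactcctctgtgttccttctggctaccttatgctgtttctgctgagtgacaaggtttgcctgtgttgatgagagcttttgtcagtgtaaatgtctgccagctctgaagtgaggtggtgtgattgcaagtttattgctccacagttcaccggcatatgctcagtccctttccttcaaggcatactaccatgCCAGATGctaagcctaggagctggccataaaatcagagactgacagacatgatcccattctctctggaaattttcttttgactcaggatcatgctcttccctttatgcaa
Negr1, highest region, intron 1, + strand (chr3:156591018-156591317): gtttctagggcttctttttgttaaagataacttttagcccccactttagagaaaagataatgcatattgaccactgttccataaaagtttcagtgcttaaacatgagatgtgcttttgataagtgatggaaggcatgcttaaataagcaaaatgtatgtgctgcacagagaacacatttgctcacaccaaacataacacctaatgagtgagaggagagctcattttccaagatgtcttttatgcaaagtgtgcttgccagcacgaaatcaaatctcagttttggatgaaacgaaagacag
The stretch of the highest Opcml region held 5 extended E-boxes, and the stretch of the second region, in intron 4, held 4, of which 3 were CATATG. The Lsamp stretch with the most sites held 3, all CAGATG. The highest regions of Ntm and Negr1 held none in the 300 bases shown, but 6 and 5 over the whole region.

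Lsamp, on chr16:39984371-42176295 (+ strand), spans 2192 kb and had the lowest density of the 4 genes. Its 53 regions comprised 9 with all 3 antibodies, 22 with ab1 and ab2, 17 with ab1 only and 5 with ab2 only. The 31 regions with at least 2 antibodies came to 1.35 per 100 kb (exact 95% Poisson interval 0.919 to 1.92). Here and below, the intervals cover counting error only. The strongest region, chr16:41974985-41975949 in intron 5, had an ab1 score of 2934, an ab2 score of 1594 and an ab3 score of 272, where a score is 10 times the −log10 p-value of the peak caller and the lowest score kept was 50. It lay 1991 kb from the TSS of the longest transcript, near the 3′ end of the gene, and ranked 732nd of all 32262 regions of the series by summed score. The second, chr16:40228384-40229346, lay in intron 1 at 244 kb from the TSS, with scores of 2143, 1577 and 247. The third, chr16:41611992-41613456 in intron 3, had scores of 2325, 990 and 252, no extended E-box in its central 200 bases and 6 in the whole region.

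Binding along Lsamp was uneven. Intron 1 (801 kb) had 13 regions, while intron 2 (747 kb) had 3, or 0.401 per 100 kb (0.0828 to 1.17). Intron 5 (179 kb) had 6, or 3.35 per 100 kb (1.23 to 7.30), so that the intervals of introns 2 and 5 did not overlap. Introns 2 and 5 had the lowest and highest density of the Lsamp introns with a region, so this only describes the extremes. When the transcript was cut into 4 equal parts, these held 8, 7, 2 and 13 regions from the 5′ end, so the part at the 3′ end had most. The longest stretch without a region of at least 2 antibodies was 440 kb, from 1189 to 1628 kb, and it contained the internal coding TSS at 1548 kb.

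Ntm, on chr9:28994750-29963129 (- strand), spans 968 kb and had the highest density. Its 31 regions came to 2.90 per 100 kb (1.97 to 4.12). Their bulk lay in the 5′ part, since 4 equal parts of the transcript held 19, 2, 5 and 4 regions from the 5′ end. Intron 1 makes up 57.1% of the intron length and held 22 of the 30 intronic regions (73.3%), or 3.99 per 100 kb (2.50 to 6.04). Within it, 12 regions lay between 91.2 and 190 kb from the TSS, which was the densest 100 kb of any of the 4 genes. The strongest regions were part of this cluster and lay about 5 kb apart. The higher, chr9:29795841-29797568, had scores of 2426, 1473 and 484 for ab1, ab2 and ab3, and the ab3 score was the highest in the 4 loci. The other, chr9:29790858-29792172, had scores of 2426, 1446 and 259. The third, chr9:29103706-29104922 in intron 4, had scores of 2167 for ab1 and 728 for ab2 but no ab3 peak, and it held no extended E-box at any position in its 1217 bases.

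Opcml, on chr9:27790947-28925410 (+ strand), spans 1134 kb and lies next to Ntm, tail to tail. It had 22 regions, or 1.78 per 100 kb (1.12 to 2.70), 5 of them with all 3 antibodies. Equal parts of the transcript held 4, 4, 6 and 6 regions from the 5′ end. Within them, 6 of the 22 regions lay in 71.7 kb, and the longest stretch without a region was 204 kb, from 668 to 872 kb. The strongest, chr9:28689764-28690973 in intron 3, had scores of 2241, 1125 and 166. The next, chr9:28821798-28822982 in intron 4, had scores of 1175, 621 and 54.9. The third, chr9:28969248-28970137, lay in the 69.3 kb between the 3′ ends of Opcml and Ntm, with scores of 800, 369 and 66.1, and was therefore counted once in the total. It was 15.3 kb from the start of Gm48091, an antisense transcript that overlaps the 3′ part of Opcml.

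Negr1, on chr3:156561794-157316445 (+ strand), spans 755 kb. Its 19 regions came to 2.22 per 100 kb (1.34 to 3.47), and 4 had all 3 antibodies. The strongest region lay 29.4 kb from the TSS in intron 1 (chr3:156590453-156591882), with scores of 1848, 1113 and 237. The second, chr3:156946662-156948299 in intron 2, had scores of 1860, 993 and 126. The third, chr3:156981950-156982561 in the same intron, had scores of 700, 463 and 68.0. Intron 2 (157 kb) held 9 regions, or 5.75 per 100 kb (2.63 to 10.9), and 8 of the 19 regions of the gene lay between 334 and 420 kb from the TSS. Introns 3 to 5 had no region, and intron 6 (152 kb) had 1.

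**Figure D1:**
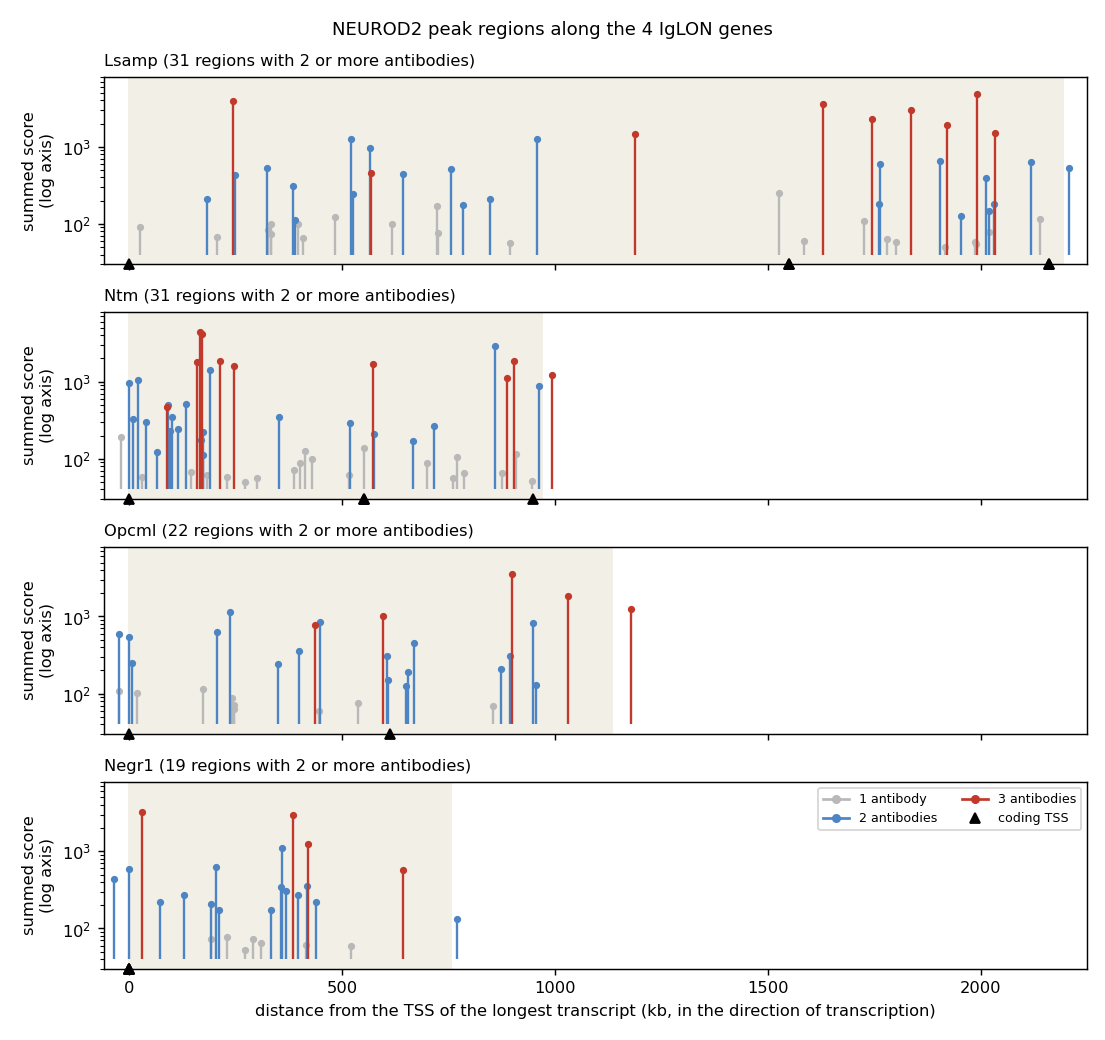
Merged NEUROD2 regions along each gene, by distance from the TSS of the longest transcript (kb, x axis) and summed peak score (log y axis), coloured by the number of antibodies, with the transcript shaded and coding TSSs as triangles. Of the regions with all 3 antibodies, 6 of the 10 at Ntm lie between 88.4 and 246 kb, and Lsamp is the only gene of the 4 with no region at its 5′ end.

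The order of the genes was the same with every antibody. Ntm had 4.77 peaks per 100 kb with ab1, 3.18 with ab2 and 0.936 with ab3, which gave 2.96 ± 1.93 (SD, n = 3 antibodies). Negr1 had 2.93, 2.34 and 0.468 (1.91 ± 1.28), Opcml had 2.27, 2.11 and 0.405 (1.59 ± 1.03), and Lsamp had 2.09, 1.57 and 0.393 (1.35 ± 0.872). The whole series had 1.96, 1.33 and 0.282 (1.19 ± 0.847). The SD over antibodies was larger than the difference between any neighbours in this order. It includes the difference in peak number between libraries, which the whole series shows as well. Each antibody was measured at every gene, so this SD is not the error of a difference between genes. The fewest peaks in every locus came from ab3. By the counting intervals of the merged regions, neighbours in the order Ntm, Negr1, Opcml, Lsamp overlapped, and only Ntm and Lsamp, the ends of the order, did not.

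**Figure D2:**
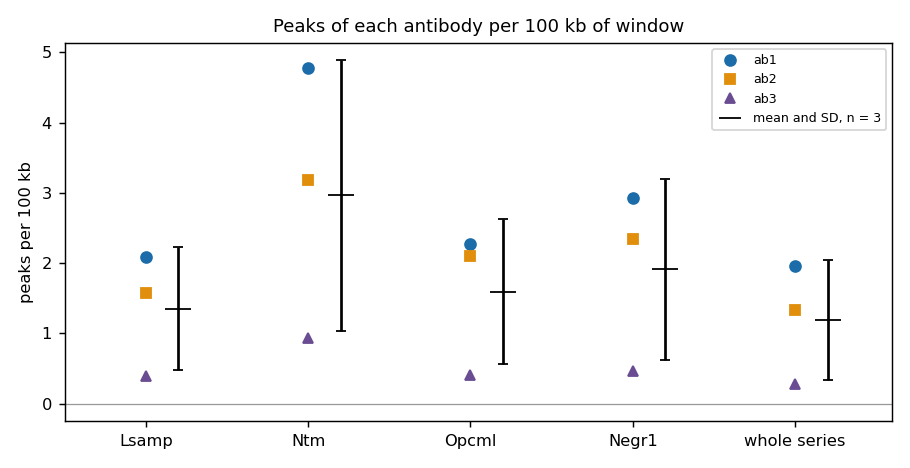
Peaks per 100 kb of window for each antibody (points) at the 4 genes and over the known bases of the genome, with the mean and SD over the 3 antibodies beside them. Ntm is highest and Lsamp lowest of the 4 genes for ab1, ab2 and ab3 alike, and every gene is above the series value of the same antibody.

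The windows together covered 5.42 Mb, or 0.205% of the known bases, and held 0.316% of the regions with at least 2 antibodies. This came to 1.88 regions per 100 kb, against 1.22 over the known bases, a ratio of 1.54. Against other long genes the 4 members were spread over the upper part of the range. Among the 224 protein-coding genes of at least 500 kb, whose median was 1.20 regions per 100 kb (quartiles 0.530 and 2.09), Ntm ranked 20th, Negr1 46th, Opcml 75th and Lsamp 95th. Ntm stood between Exoc4 (2.91), an exocyst subunit, and Ank3 (2.90), which encodes ankyrin-G of the axon initial segment. Negr1 stood between Dlgap2 (2.23) and Cdk14 (2.22), Opcml between Ptprt (1.86) and Atrnl1 (1.77), and Lsamp between Dock2 (1.37) and Anks1b (1.34). The density of each of these neighbours lay within the counting interval of its member. By number of regions, 16 of the 21938 protein-coding genes had more than the 31 of Lsamp and Ntm.

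**Figure D3:**
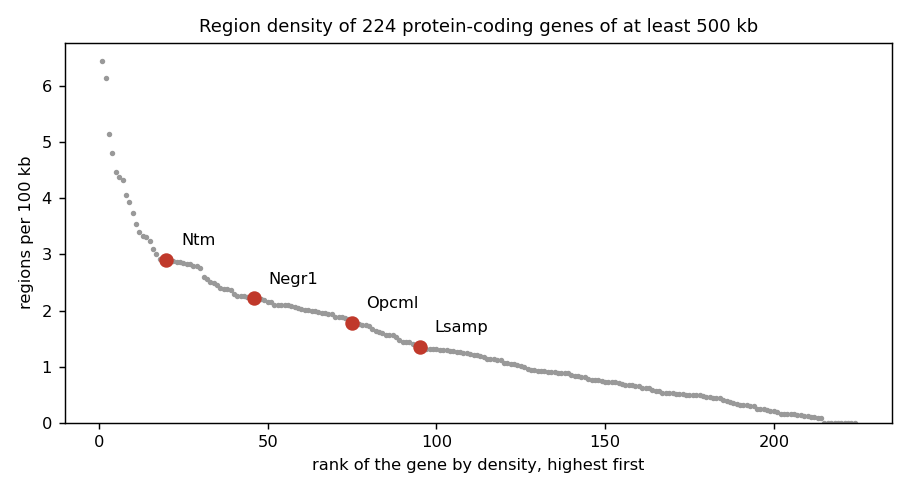
Regions per 100 kb (y axis) of the 224 protein-coding genes of at least 500 kb, ranked from the highest (x axis), with the 4 IgLON genes in red. Ntm, at 2.90, is 20th, and Lsamp, at 1.35, is 95th, above the median of 1.20.

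Other adhesion genes of the immunoglobulin superfamily, listed by family, covered a wider range. Their densities are again per window, that is the span plus 50 kb on either side, so for short genes most of the window is flank. Of 17 such genes, 15 had a region and 9 had a region with all 3 antibodies, with a median of 0.939 per 100 kb against 2.00 for the 4 members and 0.950 for all protein-coding genes, of which 67.6% had a region and 26.7% had a region with all 3 antibodies. The windows of the list differ in length from those of all genes. Mdga1, a membrane-anchored relative, was highest with 19 regions in its window (7.89 per 100 kb), followed by Cntn2 (5.34), which encodes an axonal contactin, and Cadm1 (4.68), which encodes a synaptic adhesion molecule. Cntn6 and Iglon5 had none. Iglon5 is the fifth IgLON gene and spans 17.2 kb, and 0 regions in its window allow up to 3.15 per 100 kb of window by the exact Poisson interval.

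At the promoters the genes fell into a group of 3 with a region over the TSS and Lsamp without. A region covered the TSS of the longest transcript at Ntm (chr9:29961670-29963554, scores 765 for ab1 and 189 for ab2), Opcml (chr9:27790679-27791986, 369 and 166) and Negr1 (chr3:156560475-156562747, 457 and 137). In the series, 20.8% of protein-coding genes had a region within 1 kb of this TSS. Each of these promoter regions lacked an ab3 peak and an extended E-box in its central 200 bases. Among all regions within 1 kb of a protein-coding TSS, 7.87% had all 3 antibodies, so absence of ab3 was the usual state there. Among all regions within 1 kb of any TSS, 27.2% held the extended E-box in the central 200 bases, so its absence was usual too. The Negr1 region also covers the divergent start of the lincRNA 4930570G19Rik, 76 bp from its midpoint, and held no extended E-box anywhere in its 2273 bases. At Lsamp the nearest region with at least 2 antibodies was 184 kb downstream of the TSS, and the nearest peak of any antibody, an ab1 peak with a score of 91.4, was 24.6 kb away.

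The coding starts of Negr1 further inside the gene lay up to 0.356 kb from its main TSS and were covered by the same promoter region. The distant internal coding starts of Ntm, Opcml and Lsamp were not covered by a region with at least 2 antibodies. Ntm has a coding start 551 kb into the gene (chr9:29412204), which an ab1 peak with a score of 138 covered. The midpoint of this peak lay 124 bp from the start, with no peak of another antibody. The nearest region with at least 2 antibodies to the Ntm coding start at 949 kb was 14.1 kb away, and an ab1 peak with a score of 52.2 lay 2.77 kb away. Opcml has a coding start at 613 kb, and the nearest region, with scores of 78.1 and 73.2, was 5.91 kb upstream. The coding start of Lsamp at 1548 kb was 79.9 kb from the nearest region with at least 2 antibodies, and that at 2160 kb was 41.0 kb from its nearest. Peaks of ab1 only lay closer to these Lsamp starts, at 21.6 and 22.1 kb. The 150 bases upstream of each main TSS are printed to set the bound promoters beside the unbound Lsamp promoter. An extended E-box occurs in 12.04% of such windows over all protein-coding genes.
Ntm, upstream of the TSS, - strand (chr9:29963130-29963279): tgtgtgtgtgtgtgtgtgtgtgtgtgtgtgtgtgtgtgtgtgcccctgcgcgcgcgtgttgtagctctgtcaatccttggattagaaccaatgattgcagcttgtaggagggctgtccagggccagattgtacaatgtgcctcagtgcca
Opcml, upstream of the TSS, + strand (chr9:27790797-27790946): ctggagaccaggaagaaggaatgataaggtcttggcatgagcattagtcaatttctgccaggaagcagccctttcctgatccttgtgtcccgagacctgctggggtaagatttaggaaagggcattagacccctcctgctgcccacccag
Negr1, upstream of the TSS, + strand (chr3:156561644-156561793): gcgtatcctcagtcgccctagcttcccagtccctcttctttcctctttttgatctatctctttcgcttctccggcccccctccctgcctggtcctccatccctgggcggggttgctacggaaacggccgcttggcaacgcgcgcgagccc
Lsamp, upstream of the TSS, + strand (chr16:39984221-39984370): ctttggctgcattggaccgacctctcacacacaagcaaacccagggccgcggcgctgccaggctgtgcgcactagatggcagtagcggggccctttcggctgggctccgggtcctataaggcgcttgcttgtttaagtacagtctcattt
No capitals appear in them, since none of the 4 windows holds the motif, and none holds CANNTG of any kind. Their GC content was 53.3% for Ntm, 52.7% for Opcml, 62.7% for Negr1 and 59.3% for Lsamp.

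Over the 4 loci, 96 of the 102 regions lay inside a member transcript, 95 of them in introns and 51 in intron 1. Introns make up 99.6% of the span of these transcripts, so the intron count is close to what position alone would give, and intron 1 makes up 44.97% of the intron length and held 53.7% of the intronic regions. The remaining region inside a transcript was the Opcml promoter region, whose midpoint fell in the 5′ UTR of exon 1, and no midpoint fell in a coding exon. Only 6 of 102 regions (5.88%, 95% Wilson interval 2.72 to 12.2) lay within 1 kb of the TSS of any annotated gene, against 15.7% of all regions in the series. With TSSs of protein-coding genes only it was 3 of 102 (2.94%), against 12.7% in the series. Without ab1, or without ab2, it was 1 of 27 (3.70%), and of all regions with 3 antibodies in the series 7.21% lay as close to a TSS, so little contrast remained there. Besides the 3 promoters above, these were regions beside Gm15520 in Ntm and Gm15577 and Gm43527 in Negr1. Gm15520 and Gm15577 are antisense transcripts within introns, and their regions were the fourth strongest of their genes, with summed scores of 1873 and 1095. Beyond 50 kb from any TSS lay 61 regions (59.8%, 50.1 to 68.8), against 22.6% in the series, and the median distance was 102 kb against 17.5 kb. The members were picked as genes in long loci, so a long distance to a TSS is partly built into the choice and is given as a description.

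Every region with at least 2 antibodies contained an ab1 and an ab2 peak, and all 27 ab3 peaks fell in such regions. Consequently the count of 102 was unchanged without ab3 and dropped to 27 without ab1, and likewise to 27 without ab2. The share with all 3 antibodies was 26.5% (27 of 102, 18.9 to 35.8), beside 22.2% in the series. The presence of an ab3 peak went with a high ab1 score. The median ab1 score was 1137 in the regions with all 3 antibodies and 227 in those with ab1 and ab2. Of the 17 regions with an ab1 score of at least 1000, 15 had an ab3 peak (88.2%), against 84.2% of such regions in the series. One of the exceptions was the intron 4 region of Ntm described above. The ab1 score exceeded the ab2 score in 93 of the 102 regions (91.2%), with a median ratio of 1.85. In the series it did so in 89.0% of the regions with both antibodies, with a median ratio of 1.84. Scores were not scaled between libraries, so this ratio describes the lists and not the affinity of the antibodies. The 47 regions with ab1 only had low scores, from 50.7 to 251 with a median of 76.5.

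**Figure D4:**
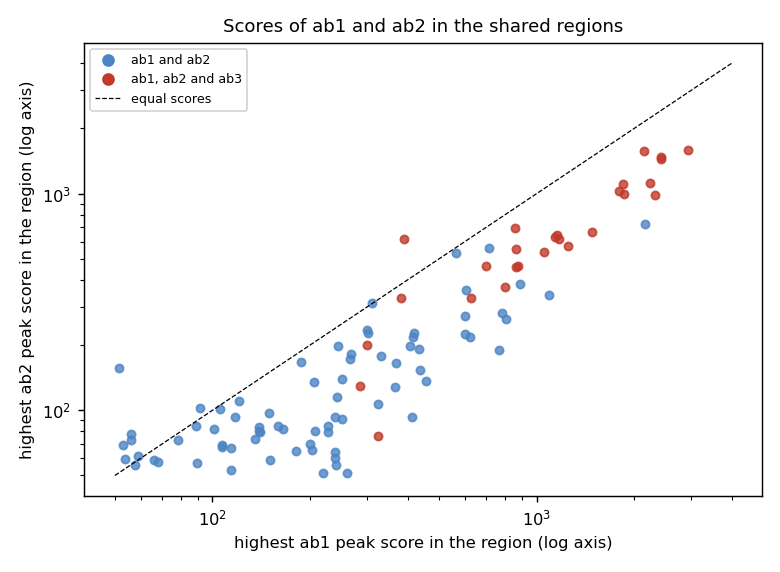
Highest ab1 (x axis) and ab2 (y axis) peak scores in the 102 regions, on log axes, coloured by the presence of an ab3 peak; the dashed line marks equal scores. Points lie below the line in 93 regions, and the 3-antibody regions have ab1 scores of 286 or more.

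The motif content of the regions was then compared with their surroundings. The extended E-box occurred in the central 200 bases of 60 of the 102 regions (58.8%, 49.1 to 67.9), close to the 59.6% of all regions in the series. Windows of the same width placed 1000 bases beyond the ends of the region held it in 13 cases on the left (12.7%) and in 27 on the right (26.5%), against 22.3% on either side over the series. On the left comparison, 51 regions had the motif at the centre only and 4 in the flank only (McNemar's exact test, two-sided, p = 2.05e-11). With the right flank the difference was smaller, at 32.4 percentage points in place of 46.1 (same exact test, p = 8.7e-06). The study derived the extended form from the peaks of these same libraries, so neither p is independent evidence for it. For CANNTG, the general form of the factor family, the centre held a site in 89.2% and the left flank in 65.7% of regions (same exact test, p = 8.43e-06). CANNTG includes the cores of the extended form, so this p is not independent evidence either. The peaks of each antibody, taken on their own, had the motif at the centre in 64.9% (ab1), 65.2% (ab2) and 85.2% (ab3) of cases, or 71.8% ± 11.6 (SD, n = 3), and in the left flank in 19.9% ± 5.24.

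By gene, the central 200 bases held the motif in 21 of 31 regions at Ntm (67.7%), 18 of 31 at Lsamp (58.1%), 12 of 22 at Opcml (54.5%) and 10 of 19 at Negr1 (52.6%). The Wilson intervals of all 4 shares overlapped, with the lowest bound at 31.7% and the highest at 81.4%. At least 2 sites in the central 200 bases occurred in 22 regions (21.6%), again close to the series (22.2%), and the largest number was 4. The strongest Opcml region, with scores of 2241, 1125 and 166, had 4. The Ntm region with 4 sites had scores of only 114 and 53.2, whereas the highest Ntm region had none in the same window. Over the whole regions the former held 4 sites in 744 bases and the latter 6 in 1728 bases, so these counts are not for equal lengths. The ab1-only regions held the motif at the centre in 31 of 47 cases (66.0%), against 12.8% in the left and 27.7% in the right flanks. The share over all ab1-only regions of the series was not computed.

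Among the CANNTG forms at the centres, CAGATG was the most frequent, with 59 sites in 44 regions against 10 sites in the left and 19 in the right flanks. CAGCTG followed with 27 against 10 and 11, and CATATG had 19 against 8 and 7. Of the forms that the extended E-box leaves out, CACCTG had 16 against 8 and 12, and CACATG had 21 against 32 and 17. In the series CAGATG made up 28.7% of the central sites and in the 4 loci 28.6%, while CAGCTG made up 17.9% and 13.1%. When the search was extended from the centre to the full region, 91 of the 102 regions held an extended E-box (89.2%, series 90.3%). The 11 without it included the Negr1 promoter region and the third region of Ntm.

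**Figure D5:**
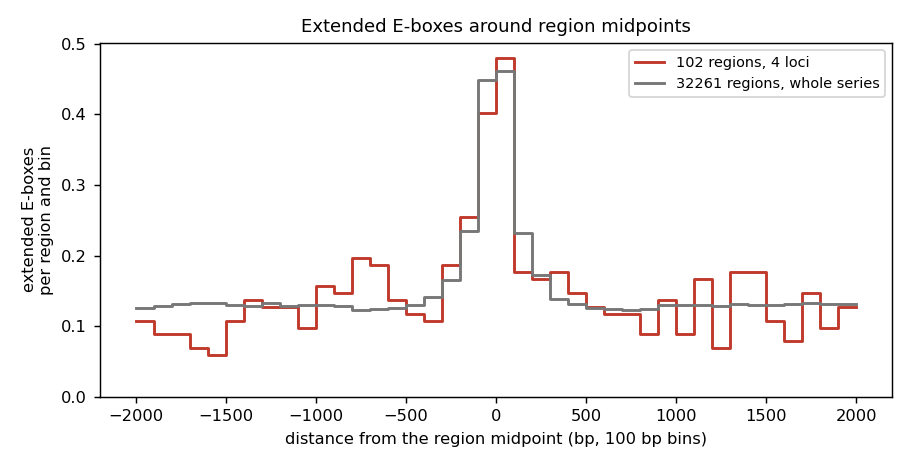
Extended E-boxes per region in bins of 100 bp (y axis) by distance from the region midpoint (x axis), for the 102 regions of the 4 loci and all 32261 regions on the reference chromosomes. Both lines peak in the bins beside the midpoint, at up to 0.480 for the loci and 0.462 for the series, and away from the midpoint the line of the loci scatters around that of the series.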

How the data were processed

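NEUROD2 ChIP-Seq libraries from E14.5 BALB/c cortex, 1 for each of 3 antibodies, were analysed as peak lists. On the Galaxy server the authors aligned reads to mm10 (Bowtie), dropped duplicates and multi-mapping reads, and ran MACS separately per antibody, with the GFP precipitate of matching host as control. The deposited score of a peak is 10 times the −log10 p-value and was not scaled between libraries. The lists hold no reads, so depth is not known from them, and the GFP libraries were not analysed here.

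Peaks sharing at least 1 bp were merged, and regions with at least 2 antibodies were used. Midpoints were placed on GENCODE M21 transcripts, taking the longest for each gene. Sequence came from the RefSeq copy of GRCm38, which is C57BL/6J, so BALB/c variants were not seen. Analyses used Python 3.11.15, numpy 2.4.6 and scipy 1.17.1, and were tested on simulated data. The 4 genes, the adhesion list and the rules for what to name were chosen with earlier results of these data known. Named were the members, their neighbours in rank, the extremes of the adhesion list, the top 3 regions of each gene and the region closest to each TSS. Regions of 1 gene share libraries and are not replicates, so McNemar's test covers the spread between regions only. Alternatives varied the score minimum, overlap, number of antibodies, flank, gene span, TSS set, motif, windows and long-gene limit, and left out each antibody in turn.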

Additional observations from a re-analysis of the deposited data

How the results depend on the processing

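The counts of regions depended on how peaks were selected. With a score of at least 100, the count over the 4 loci fell from 102 to 60, with 20 at Lsamp, 18 at Ntm, 13 at Opcml and 10 at Negr1. With all 3 antibodies required, it was 27, with 9, 10, 5 and 4 in the same order of genes. Leaving out 1 antibody gave 27 to 102 regions over the loci, 9 to 31 at Lsamp, 10 to 31 at Ntm, 5 to 22 at Opcml and 4 to 19 at Negr1. The low values came without ab1 (replicate 1) or ab2 (replicate 2), where a region needs an ab3 peak. The overlap, flank and gene-span settings changed no count by over 1.5 times. The E-box was more frequent at centres than in flanks in all 11 alternatives run, with McNemar's exact p up to 0.00739 (without ab2), but 10 of them used the left flank, which had the lower share. By gene, with McNemar's exact test, the right flank in place of the left gave p = 0.0127 in place of 0.00131 at Lsamp, 0.0213 in place of 1.53e-05 at Ntm, 0.0923 in place of 0.00635 at Opcml and 0.18 in place of 0.0391 at Negr1, so the last 2 calls were lost. The size of the difference varied more, from 23.5 percentage points with CANNTG and 29.4 with 100 bp windows to 59.3 without ab1, against 46.1. The order by density within the long genes, Ntm, Negr1, Opcml, Lsamp, was kept in each alternative, with Ntm 17th to 38th of 224, or 119th of 719 genes with the lower length limit. No paired analysis was possible because the GFP libraries, which share replicate numbers with NEUROD2, served only as controls in peak calling. With 1 library per antibody, biological replicate error cannot be given, and weak peaks rest on the score minimum of 50.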

Other observations

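The 1000 bases centred on each main TSS differed in composition. The GC content was 64.3% at Negr1, 55.9% at Lsamp, 53.0% at Opcml and 47.6% at Ntm, and the ratio of observed to expected CpG was 0.745, 0.614, 0.342 and 0.465. The Lsamp window, the only one of the 4 without a region, held 1 extended E-box, the Opcml window held 1, and those of Ntm and Negr1 held 0. Neighbouring midpoints lay within 10 kb in 10 of 30 gaps at Ntm, 7 of 30 at Lsamp, 6 of 21 at Opcml and 4 of 18 at Negr1, with the closest pair of each gene 1.04 to 1.41 kb apart.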
